A study of Mus musculus with 4 samples.

Results

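The B cell receptor complex and its coreceptors were described through 9 genes, chosen by name: Cd79a, Cd79b, Cd81, Cr2, Cd22, Cd72, Fcgr2b, Ptprc and Ptpn6. All 9 were found among the 34866 genes of the table by matching their Ensembl identifiers to GENCODE M21 names on GRCm38. The table holds 4 RNA-seq libraries from the spleens of 2 mice with IgM+ Tom+ tumors (tumors #1 and #2), with 1 Tom- and 1 Tom+ library from each mouse and no further replicates. The mice were λ-MYC Tom+/ki, and every library carried the same alleles. The human MYC transgene is driven by Igλ regulatory sequences, and Cre switches on the Tomato protein from the Rosa26 locus. B220+ IgM+ Tom+ cells had therefore expressed Cre at some time, and B220+ IgM+ Tom- cells of the same spleen had not been marked. Mice were taken when moribund, their ages are not given in the sources used here, and no mouse without the MYC transgene was compared.

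The B cell receptor is a membrane immunoglobulin that binds antigen but signals through the paired chains encoded by Cd79a and Cd79b. A coreceptor that holds CD81 and the complement receptor encoded by Cr2 lowers the amount of antigen needed for a response. CD22, CD72 and the Fc receptor encoded by Fcgr2b carry inhibitory motifs that recruit phosphatases, among them SHP-1, the product of Ptpn6. CD45, the product of Ptprc, removes the inhibitory phosphate from Src family kinases, and B220, which was used to sort these cells, is its long isoform. Sorting on B220 and IgM thus required 2 of the products of this system at the surface of every cell, in Tom+ and Tom- cells alike.

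Levels are given as TPM, transcript abundance corrected for gene length and scaled to a sum of 1000000 in every library, so genes can be compared within a library. TPM keep no read numbers, so the depth of these libraries is unknown and counting error could not be estimated. Fold changes are differences of log2(TPM + 1), a scale that shrinks changes of genes at low levels, called log2 differences where given in parentheses, each with its standard error (SE) from limma. Tom- and Tom+ cells of a mouse came from the same spleen, and p-values measure the spread between these 4 libraries alone. Between tumors #1 and #2 the libraries differed in composition, with mitochondrial genes at 6.61% to 8.67% of TPM in tumor #1 and 14.4% to 15.6% in tumor #2, and pseudogenes at 30.3% to 31.3% and 23.4% to 25.4%.

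The sorted cells carried B cell transcripts, and transcripts of most other cell types were near 0. The B cell markers (9 genes) summed to between 1291 and 3065 TPM per library. T cell markers summed to between 1.58 and 10.5 TPM, NK cell markers to between 0.0608 and 0.727 TPM, myeloid markers to between 2.64 and 13.3 TPM, and markers of stromal, follicular dendritic and endothelial cells to between 0.477 and 0.95 TPM. Erythroid and platelet markers summed to between 0.804 and 21.5 TPM, mostly Hbb-bs in tumor #1. Plasma cell markers summed to between 118 and 315 TPM, with the highest value in Tom+ cells of tumor #2, where Jchain alone was at 209 TPM. Of the 10 myeloid markers, Cd14, Fcgr1 and Ly6g were listed at 0 in all 4 libraries, as were 3 of 5 NK cell, 4 of 9 stromal and 5 of 9 erythroid markers. Among the 9 T cell markers Cd3e reached at most 0.0687 TPM, and Trac was listed at 0 in both libraries of tumor #2. The 2 T cell markers high enough to be tested were both higher in tumor #2 than in tumor #1. Their log2 fold changes were 1.33 and 2.14, and 0 passed after adjustment in limma.

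Ptpn6 was the most abundant of the 9 genes in all 4 libraries, and Cr2 was the least abundant in all 4. The order by mean TPM was Ptpn6 (469 ± 118, SD, n = 4 libraries), Cd79b (271 ± 147), Cd22 (243 ± 156), Cd79a (230 ± 113), Ptprc (66.0 ± 18.3), Cd72 (59.9 ± 38.9), Fcgr2b (59.7 ± 33.5), Cd81 (44.6 ± 5.19) and Cr2 (0.95 ± 1.12). These SDs include the difference between the mice. Only the steps from Cd79a to Ptprc and from Cd81 to Cr2 separated neighbors whose ranges over the 4 libraries did not overlap. Cd79b, Cd22 and Cd79a overlapped one another, as did Ptprc, Cd72, Fcgr2b and Cd81. Compared within each library, Cd79b stood above Cd79a and Ptprc above Cd81 in all 4. The order of the other pairs within those groups changed between libraries. Within tumor #1 Cd81 stood above both Fcgr2b and Cd72, whereas in tumor #2 it stood below them.

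**Figure D1:**
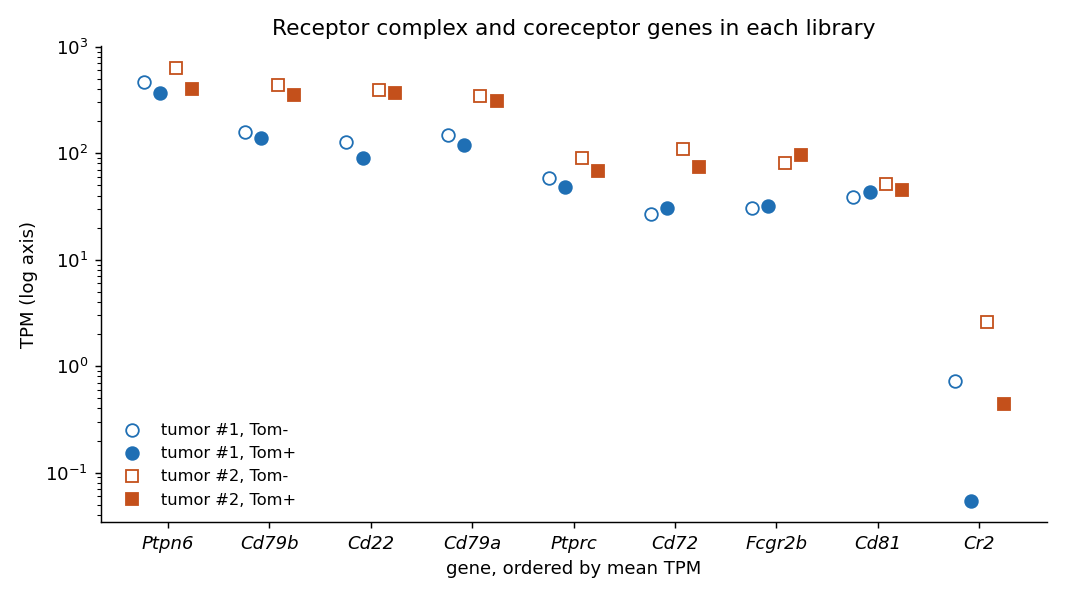
TPM of the 9 genes in each of the 4 libraries, on a log axis, with genes ordered by mean TPM. Circles are tumor #1, squares tumor #2, open symbols Tom- and filled symbols Tom+ cells. For Cd79a, Cd79b, Cd22, Cd72 and Fcgr2b both squares lie well above both circles, and Cr2 lies far below the other genes, with the Tom+ libraries lowest. Of all genes tested, 44.8% had both libraries of tumor #2 above both of tumor #1, and 9.86% had both Tom+ libraries below both Tom- libraries.

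Cd79a (ENSMUSG00000003379, chr7:24897381-24902197, plus strand) and Cd79b (ENSMUSG00000040592, chr11:106311341-106314762, minus strand) encode the signaling chains, which reach the surface only as a pair. Cd79a gave 147 TPM (Tom-) and 120 TPM (Tom+) in tumor #1, against 346 TPM (Tom-) and 306 TPM (Tom+) in tumor #2. Cd79b gave 157 TPM (Tom-) and 139 TPM (Tom+) in tumor #1, against 437 TPM (Tom-) and 351 TPM (Tom+) in tumor #2. Both genes were higher in each library of tumor #2 than in either library of tumor #1, as were 44.8% of all genes tested. In each mouse Tom+ cells had the lower value, as for 29.5% of all genes tested. The ratio of Cd79a to Cd79b was 0.938 (Tom-) and 0.868 (Tom+) in tumor #1, against 0.792 (Tom-) and 0.874 (Tom+) in tumor #2. It varied by 1.18-fold from the lowest to the highest library, while the levels themselves varied more than this between the mice, so the transcripts of the 2 chains kept close to the same proportion.

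Of the coreceptor, Cd81 (ENSMUSG00000037706, chr7:143052739-143067934, plus strand), which encodes a tetraspanin, had the smallest SD relative to its mean of the 9 genes. It gave 38.8 TPM (Tom-) and 42.8 TPM (Tom+) in tumor #1, against 51.2 TPM (Tom-) and 45.5 TPM (Tom+) in tumor #2. Cr2 (ENSMUSG00000026616, chr1:195136811-195176716, minus strand) encodes the receptor for complement fragments on mature B cells, and in mice also the longer receptor CD35 by splicing, which a value per gene does not separate. Its level was 0.721 TPM (Tom-) and 0.0546 TPM (Tom+) in tumor #1, against 2.59 TPM (Tom-) and 0.440 TPM (Tom+) in tumor #2. Both Tom+ libraries were below both Tom- libraries, as for 9.86% of all genes tested. With TPM of at least 1 in only 1 library, Cr2 was below the limit for testing, and at such levels the values may rest on few reads. Relative to Cd81 in the same library, Cr2 was at 0.0186 and 0.00127 in tumor #1 and at 0.0505 and 0.00967 in tumor #2. Fcer2a, which encodes CD23 and like Cr2 is a gene of mature follicular B cells, was between 0.127 and 0.862 TPM.

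The inhibitory receptors were all expressed, and all were higher in tumor #2. Cd22 (ENSMUSG00000030577, chr7:30865402-30880342, minus strand) encodes a lectin that binds sialic acid on neighboring proteins. It gave 127 TPM (Tom-) and 89.8 TPM (Tom+) in tumor #1, against 390 TPM (Tom-) and 364 TPM (Tom+) in tumor #2. Cd72 (ENSMUSG00000028459, chr4:43446462-43454628, minus strand), whose product binds the semaphorin encoded by Sema4d, gave 26.8 TPM (Tom-) and 30.3 TPM (Tom+) in tumor #1, against 109 TPM (Tom-) and 73.9 TPM (Tom+) in tumor #2. Fcgr2b (ENSMUSG00000026656, chr1:170958617-170976547, minus strand) encodes the only Fc receptor for IgG that B cells are known to carry. It gave 30.5 TPM (Tom-) and 31.6 TPM (Tom+) in tumor #1, against 81.3 TPM (Tom-) and 95.2 TPM (Tom+) in tumor #2. For each of these 3 genes the libraries of the mice did not overlap, as for 44.8% of all genes tested in the higher and 23.7% in the lower direction, while Tom+ and Tom- libraries did. Fcgr3, whose sequence resembles that of Fcgr2b closely and which marks myeloid and NK cells, was at 0 in 3 libraries and at 0.208 TPM in Tom+ cells of tumor #1. The share of reads that could have been assigned to either gene is not known.

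Of the phosphatases, Ptprc (ENSMUSG00000026395, chr1:138062861-138175708, minus strand) gave 58.1 TPM (Tom-) and 47.8 TPM (Tom+) in tumor #1, against 90.6 TPM (Tom-) and 67.5 TPM (Tom+) in tumor #2. Its many isoforms, B220 included, were summed in these values. Ptpn6 (ENSMUSG00000004266, chr6:124720707-124738714, minus strand) gave 466 TPM (Tom-) and 371 TPM (Tom+) in tumor #1, against 637 TPM (Tom-) and 404 TPM (Tom+) in tumor #2. Tom+ cells were lower in each mouse for both genes, as for 29.5% of all genes tested. For Ptpn6 both Tom+ libraries were below both Tom- libraries, as for 9.86% of all genes tested.

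Sequences before the start sites of Cd79a, Cd22 and Cr2 are shown because these genes stand for the signaling chains, for the largest difference between the mice among the members tested, and for the gene that was nearly silent. They are RefSeq windows of GRCm38.p6, read 5′ to 3′ in the direction of the gene and limited to bases in no annotated exon. Capitals mark matches, on either strand, to motifs searched in the 250 bases before each start site: the EBF1 palindrome (or its core, CCCNNGGG), GAGGAA for PU.1, CAGGTG for E2A and ATGCAAAT for the octamer. The core was added after the longer EBF1 palindrome of 10 bases had been searched, and lies within it. Apart from that, none of the matches overlapped another. The Cd79a stretch, chr7:24897247-24897380 (plus strand), and the Cr2 stretch, chr1:195176720-195176969 (minus strand), lie just before the GENCODE gene. The Cd22 stretch, chr7:30879029-30879176 (minus strand), lies in an intron of the longer GENCODE gene, whose start is farther upstream than the RefSeq start.
Cd79a: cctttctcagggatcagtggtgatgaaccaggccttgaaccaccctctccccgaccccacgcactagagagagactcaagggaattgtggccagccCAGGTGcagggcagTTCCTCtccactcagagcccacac
Cd22: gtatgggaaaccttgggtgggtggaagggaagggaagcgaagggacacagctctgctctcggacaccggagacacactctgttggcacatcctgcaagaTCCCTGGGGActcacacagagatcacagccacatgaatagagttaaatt
Cr2: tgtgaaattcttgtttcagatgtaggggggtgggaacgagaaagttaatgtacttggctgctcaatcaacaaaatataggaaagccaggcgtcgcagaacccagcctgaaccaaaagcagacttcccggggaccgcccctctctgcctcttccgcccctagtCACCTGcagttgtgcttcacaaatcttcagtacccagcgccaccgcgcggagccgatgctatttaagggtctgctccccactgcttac

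The EBF1 palindrome was found in 1 of 8 members with a window, Cd22, with its first base 49 bases before the start site, and in 0.779% of 32851 RefSeq windows of the same length. Its core was found in 2 of the 8 (Cd22 and Cd81) against 11.8% of all windows. The E2A motif was found in 4 of the 8 (Cd79a, Cd22, Cr2 and Ptpn6) against 17.2% of all windows, with the Cd22 match in an exon and so outside the stretch shown. The PU.1 motif was found in 3 of the 8 (Cd79a, Cd72 and Ptprc) against 23.3%, and the octamer in 0 of the 8 against 1.6%. Cd79b had no window in the table. A match describes the letters of a window, and binding was not measured.

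The first comparison, Tom+ against Tom- cells of the same mouse, asks how lymphoma cells marked by Cre differ from unmarked ones. Of the 8 members tested, 0 had an adjusted p-value below 0.05 in limma's two-sided test with the mouse as a block, as did 0% of the 11339 genes tested, and 1 member (Ptpn6) had an unadjusted p-value below 0.05, against 4.67% of all genes (2.04% higher, 2.64% lower). Within each mouse 5 members had the lower value in Tom+ cells (Cd79a, Cd79b, Cd22, Ptprc and Ptpn6) and 1 had the higher value (Fcgr2b), where 29.5% of all genes tested were lower and 21.6% higher in both. Cd81 and Cd72 went in opposite directions in the mice, as did 48.8% of all genes. The median log2 fold change of the 8 members was -0.24, with -0.23 in tumor #1 and -0.25 in tumor #2, beside -0.033 over all genes tested. For a single value the smallest p-value from exact permutation of 2 pairs is 0.5, so no value was tested that way.

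Ptpn6 had the largest difference among the members tested. TPM in Tom+ cells differed by -20.4% in tumor #1 and by -36.5% in tumor #2, and limma gave a log2 fold change of -0.49 with an SE of 0.14 (adjusted p = 0.936). Non-overlap in the lower direction, which Ptpn6 alone of the 8 showed, was found for 9.86% of all genes tested, and non-overlap in the higher direction, which 0 of the 8 showed, for 6.42%. Ptprc differed by -17.7% and by -25.5% (limma log2 difference -0.35, SE 0.14, adjusted p = 0.936). The ratio of Ptprc to Ptpn6 was 0.125 (Tom-) and 0.129 (Tom+) in tumor #1, against 0.142 (Tom-) and 0.167 (Tom+) in tumor #2. This ratio was thus higher in Tom+ cells of each mouse. The differences of the 2 phosphatases between Tom+ and Tom- cells did not pass the test.

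For the signaling chains the log2 fold changes were -0.23 (SE 0.12) for Cd79a and -0.25 (SE 0.12) for Cd79b, both with an adjusted p-value of 0.936 from limma. The change of Cd79a was the larger in tumor #1 (-0.29 against -0.18 for Cd79b), and that of Cd79b was the larger in tumor #2 (-0.32 against -0.18 for Cd79a). The value for Cd22 was -0.30 (SE 0.16, adjusted p = 0.936), from -0.49 in tumor #1 and -0.10 in tumor #2. Fcgr2b was the exception, at 0.14 (SE 0.15, adjusted p = 0.939), from 0.049 and 0.22. Cd72 differed the most between the mice, with 0.17 in tumor #1 and -0.55 in tumor #2 (mean -0.19, SE 0.24, adjusted p = 0.948). Cd81 averaged -0.013 (SE 0.16, adjusted p = 0.997), from 0.14 and -0.17, and its mean turned to 0.015 with trimmed-mean scaling and to 0.043 after rescaling over protein-coding genes. Cr2 was left out by the filter and entered 3 of the alternatives, with log2 fold changes of -1.01 without the filter (adjusted p = 0.929), -1.08 with quantile normalization (adjusted p = 0.940) and -1.35 after rescaling over protein-coding genes (adjusted p = 0.925), and with TPM in Tom+ cells differing by -92.4% in tumor #1 and by -83.0% in tumor #2.

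**Figure D2:**
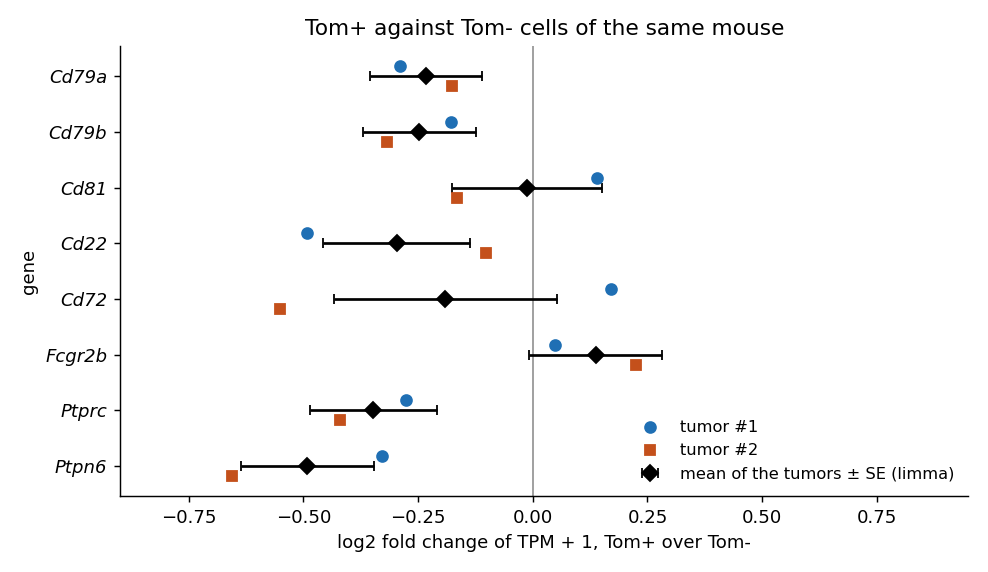
Log2 fold change of TPM + 1 in Tom+ over Tom- cells for the 8 members tested. Circles are tumor #1, squares tumor #2, and black diamonds with bars limma's mean and SE. Cd79a, Cd79b, Cd22, Ptprc and Ptpn6 lie below 0 in both tumors, Fcgr2b lies above 0 in both, and Cd81 and Cd72 lie on either side. The mean of Cd81, -0.013, turned positive with trimmed-mean scaling and after rescaling over protein-coding genes.

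Beside the members, B cell markers were also lower in Tom+ cells. Of the 8 B cell markers tested 6 were lower in both mice and 0 were higher, against 29.5% and 21.6% of all genes tested. Their median log2 fold change was -0.30, and 0 passed after adjustment. In bulk samples, fewer cells of a type and less RNA per cell cannot be told apart, and the part of these shifts in the lower values of the members was not tested. The immunoglobulin chain genes showed no common direction between the mice. A value per gene does not separate membrane from secreted transcripts of a heavy chain. Ighm gave 1334 TPM (Tom-) and 1255 TPM (Tom+) in tumor #1, against 2191 TPM (Tom-) and 3652 TPM (Tom+) in tumor #2, while Igkc was at 5379 and 4933 TPM and at 4634 and 8295 TPM. Both were slightly lower in Tom+ cells of tumor #1 and higher in Tom+ cells of tumor #2, the library with the high Jchain value.

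The other genes of the receptor pathway showed the same absence of calls, and 0 genes of any list had an adjusted p-value below 0.05 from limma. The unadjusted p-value was below 0.05 for 1 of the kinases and adaptors (Grb2) and for 1 of the B cell markers (Ms4a1, which encodes CD20). It was below 0.05 for 4.67% of all genes tested. For the counts of direction that follow, 29.5% of all genes tested were lower and 21.6% higher in Tom+ cells of both mice. Of 17 kinases and adaptors next to the receptor 9 were lower and 0 higher in Tom+ cells of both mice, with a median log2 fold change of -0.058. Grb2, an adaptor that links the receptor to Ras, went from 85.3 TPM to 63.6 TPM (tumor #1) and from 95.2 TPM to 70.2 TPM (tumor #2), with a log2 difference of -0.43 (SE 0.13, adjusted p = 0.936). Pik3ap1, the adaptor BCAP, went from 10.7 to 8.40 TPM and from 10.4 to 7.6 TPM. Of 16 phosphatases and negative regulators 7 were lower and 2 higher in both mice (median -0.10). Dok1, an adaptor that restrains Ras, had the largest same-sign difference, from 8.26 TPM to 6.85 TPM (tumor #1) and from 23.2 TPM to 7.80 TPM (tumor #2), and Ptpn18 went from 4.9 to 12.6 TPM in tumor #1 but only from 46.9 to 47.5 TPM in tumor #2. In the list of other inhibitory receptors of B cells, which also holds the related Fcrl1 and Fcrla, 7 genes were tested. Of these, 3 were lower and 1 was higher in both mice (median -0.097, which turned to 0.052 after rescaling over protein-coding genes). Fcrla, encoded close to Fcgr2b, went from 58.2 to 42.0 TPM and from 198 to 183 TPM, and Pirb from 0.301 to 0.557 TPM and from 3.41 to 3.78 TPM.

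The second comparison, tumor #2 against tumor #1, was where the members differed the most. Cd22, Fcgr2b, Cd79b and Cd79a were higher in tumor #2 at an adjusted p-value below 0.05, 4 of the 8 members tested, where 4.33% of all genes tested passed in either direction, 3.37% higher and 0.961% lower. Of the 491 calls over all genes 382 were higher, against 316 of 534 with trimmed-mean scaling. In 7 of the 8 members both libraries of tumor #2 were above both libraries of tumor #1 (all but Ptpn6), against 44.8% of all genes tested, and 0 of the 8 were wholly below, against 23.7%. The unadjusted p-value was below 0.05 for 6 of the 8 and for 36.7% of all genes tested. The median log2 fold change of the 8 was 1.34, beside 0.20 over all genes tested. Each tumor is 1 mouse, and the test takes its spread from the Tom+ and Tom- libraries of these mice, so it compares these 2 mice and not kinds of tumor. The adjusted p-values lay between 0.0468 and 0.0480, and 0 members passed with a pseudocount of 0.1, without a filter, with a mean TPM of at least 5, with quantile normalization or without a variance trend.

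Cd22 had the largest difference of the members tested, 3.08-fold between the Tom- libraries and 4.05-fold between the Tom+ libraries (log2 difference 1.81, SE 0.16, adjusted p = 0.0468 from limma). Fcgr2b was 2.67-fold and 3.01-fold higher (1.47, SE 0.15, adjusted p = 0.0480). Cd79b was 2.78-fold and 2.53-fold higher (1.40, SE 0.12, adjusted p = 0.0468), and Cd79a was 2.35-fold and 2.55-fold higher (1.28, SE 0.12, adjusted p = 0.0480). In these 4 genes the difference between the mice held at a similar size in Tom- and in Tom+ cells. Cd72 was 4.05-fold higher between the Tom- libraries and 2.44-fold between the Tom+ libraries, and with this wider spread did not pass (1.62, SE 0.24, adjusted p = 0.0619).

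The phosphatases and Cd81 differed less. Ptprc was 1.56-fold and 1.41-fold higher in tumor #2 (log2 difference 0.56, SE 0.14, adjusted p = 0.0953). Ptpn6 was at 0.28 (SE 0.14, adjusted p = 0.251) and Cd81 at 0.24 (SE 0.16, adjusted p = 0.364), close to the median of all genes. Relative to that median, the difference of Cd22 lay between 1.58 and 1.95 under all settings tried, that of Cd79a between 1.05 and 1.42, that of Ptpn6 between 0.055 and 0.54, and that of Cd81 between 0.013 and 0.14. Relative to Ptpn6 in the same library the inhibitory receptors stood higher in tumor #2, as did Ptprc to a smaller extent. The ratio of Cd22 to Ptpn6 was 0.272 (Tom-) and 0.242 (Tom+) in tumor #1, against 0.613 (Tom-) and 0.900 (Tom+) in tumor #2. The ratio of Fcgr2b to Ptpn6 went from 0.0654 and 0.0851 to 0.128 and 0.236, and that of Cd72 to Ptpn6 from 0.0576 and 0.0817 to 0.171 and 0.183. In each of the 3 ratios both libraries of tumor #2 were above both libraries of tumor #1. The same held for Ptprc to Ptpn6, at 0.125 and 0.129 in tumor #1 and at 0.142 and 0.167 in tumor #2, but not with quantile normalization. There this ratio was 0.136 (Tom-) and 0.143 (Tom+) in tumor #1, against 0.131 (Tom-) and 0.145 (Tom+) in tumor #2. A ratio within a library does not depend on a scaling factor, while quantile normalization can change it.

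**Figure D3:**
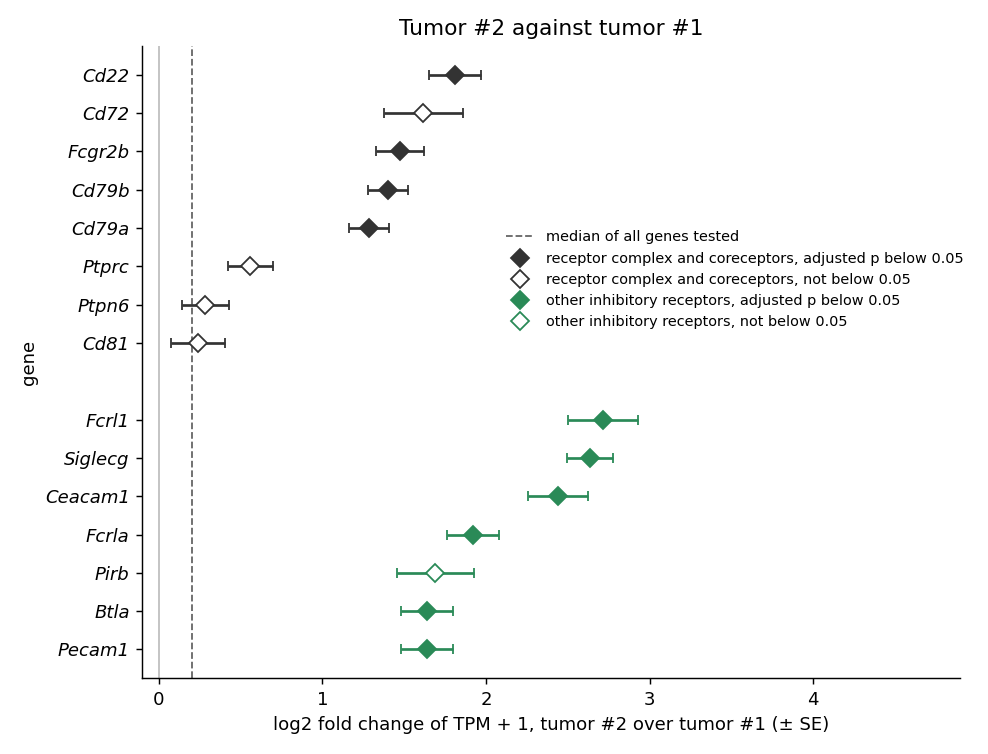
Log2 fold change of TPM + 1 in tumor #2 over tumor #1 with limma's SE, for the 8 members tested and 7 genes of another list. That list, labeled other inhibitory receptors in the plot, also holds the related Fcrl1 and Fcrla, which are not inhibitory receptors. Filled diamonds had an adjusted p-value below 0.05, and the dashed line is the median of all genes tested, 0.20. Cd22, Cd72, Fcgr2b, Cd79b and Cd79a lie between 1.28 and 1.81, Ptpn6 and Cd81 lie near the dashed line, and the 7 genes of the other list lie between 1.64 and 2.71.

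**Figure D4:**
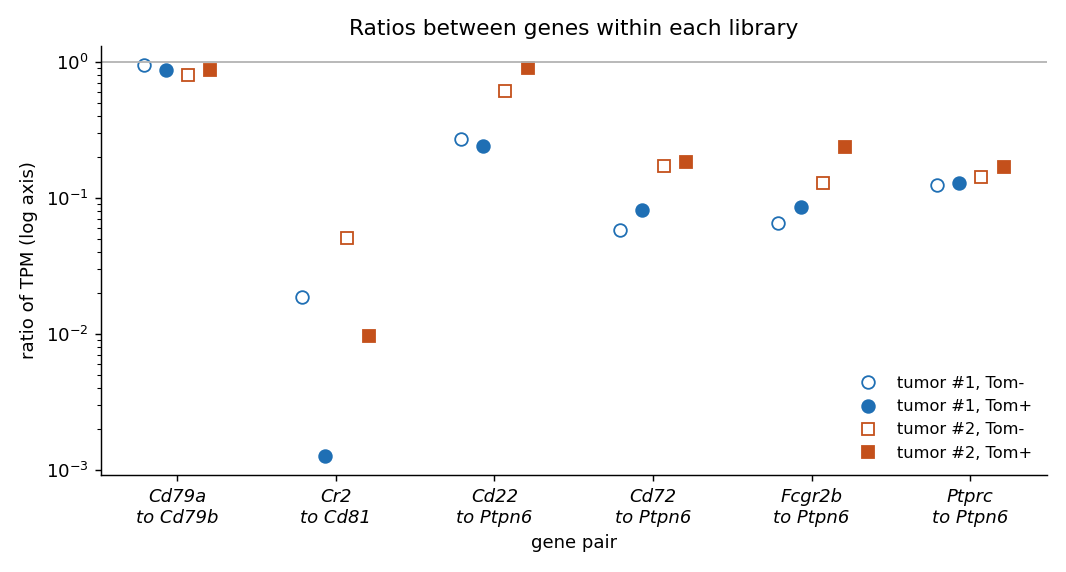
Ratios of TPM between genes within each library, on a log axis, with symbols as in the plot of levels. The ratio of Cd79a to Cd79b stays between 0.792 and 0.938. The ratios of Cd22, Cd72, Fcgr2b and Ptprc to Ptpn6 are higher in both libraries of tumor #2, that of Ptprc by the least. With quantile normalization, not plotted, the ratio of Ptprc to Ptpn6 no longer separated the tumors. The ratio of Cr2 to Cd81 is lowest in the Tom+ library of each tumor.

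The list of other inhibitory receptors of B cells stood higher in tumor #2 as well. It also holds Fcrl1 and Fcrla, which are related genes and not inhibitory receptors, and the counts below include them. Of 7 tested, 6 had an adjusted p-value below 0.05 in limma, all higher, where 3.37% of all genes tested passed in that direction. The median log2 fold change was 1.92, beside 0.20 over all genes tested. Siglecg, a lectin related to CD22, gave 17.8 TPM (Tom-) and 18.4 TPM (Tom+) in tumor #1, against 119 TPM (Tom-) and 116 TPM (Tom+) in tumor #2 (log2 difference 2.64, SE 0.14, adjusted p = 0.0444). Fcrl1, an Fc receptor-like protein, was at 1.49 and 1.54 TPM and at 16.9 and 14.2 TPM (2.71, SE 0.21, adjusted p = 0.0457). The remaining calls were Ceacam1 (2.44), Fcrla (1.92), Btla (1.64) and Pecam1 (1.64). As for the members, these calls fell to 0 in some settings, among them a pseudocount of 0.1, while all medians stayed positive. Of 6 further genes of this list none was tested, and Cd200r1 was at 0 in all 4 libraries.

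Of 17 kinases and adaptors 5 passed, 4 of them higher and 1 lower in tumor #2 (median 0.92). Of all genes tested, 3.37% passed as higher and 0.961% as lower. Over the settings tried the calls among the kinases and adaptors ranged from 0 to 12. As for the members, there were 0 with a pseudocount of 0.1, without a filter, with the filter on mean TPM and with quantile normalization. Blk, a Src family kinase of B cells, went from 7.78 TPM (Tom-) and 5.15 TPM (Tom+) in tumor #1 to 65.3 and 56.6 TPM in tumor #2 (log2 difference 3.07, SE 0.18, adjusted p = 0.0444). Fyn, another Src family kinase, went the other way, from 36.7 and 56.5 TPM to 6.59 and 6.01 TPM (-2.67, SE 0.26, adjusted p = 0.0480). The 3 other calls were higher, Blnk (1.29), Bank1 (1.26) and Prkcb (1.19). Of 16 phosphatases and negative regulators 1 passed, the adaptor gene Sla, from 2.77 and 2.41 TPM to 26.9 and 25.7 TPM (2.93, SE 0.19, adjusted p = 0.0444), and their median was 0.38. The call of Sla was also lost in those 4 settings. Ptpn18 had the next largest difference in this list, with a log2 fold change of 2.42 and an adjusted p-value of 0.0619.

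B cell markers as a whole were higher in tumor #2, with a median log2 fold change of 1.35. Of 8 tested 4 passed as higher (0 to 7 passed over the settings tried), against 3.37% of all genes tested. Among these 4 calls, Blk and Bank1 are also counted with the kinases and adaptors, and Cd37 with the tetraspanins. The lists thus share calls and are not separate evidence. Ebf1 went from 26.9 and 21.3 TPM to 87.7 and 50.5 TPM (adjusted p = 0.0565). T cell markers summed to 1.58 TPM (Tom-) and 2.13 TPM (Tom+) in tumor #1 and to 10.5 and 9.71 TPM in tumor #2, and myeloid markers to 2.64 and 4.71 TPM and to 13.3 and 7.04 TPM. The part of these cell types, of the mitochondrial and pseudogene shares and of the mouse itself in the higher values of the members was not tested. Since each tumor is a single mouse, the tumor and the mouse cannot be told apart.

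Tetraspanins and other partners of CD81 were tested for 11 of 16 genes, and 2 passed, both higher in tumor #2, against 3.37% of all genes tested. The calls of this list ranged from 0 to 5 over the settings tried, with 0 in the same 5 settings as for the members and 1 with trimmed-mean scaling. Cd37 went from 101 and 99.0 TPM to 352 and 254 TPM (log2 difference 1.57, SE 0.17, adjusted p = 0.0496), and Cd53 from 37.3 and 29.7 TPM to 95.5 and 84.7 TPM (1.41, SE 0.14, adjusted p = 0.0481). Both are tetraspanins of leukocytes, as is Tspan32, at 1.75 (adjusted p = 0.0558). Between Tom+ and Tom- cells 5 of the 11 were lower and 2 higher in both mice, against 29.5% and 21.6% of all genes tested. The largest same-sign differences were in Cd82 (log2 difference -0.57) and Tspan14 (-0.43). Ifitm1 and Ifitm2, members of the family of small proteins that associate with the coreceptor, were at 0 in all 4 libraries.

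The receptors for complement and immunoglobulin around Cr2 and Fcgr2b were mostly low. Of 9 other Fc receptor genes only Fcmr, the receptor for IgM, could be tested. It gave 3.76 TPM (Tom-) and 1.78 TPM (Tom+) in tumor #1, against 32.7 TPM (Tom-) and 67.7 TPM (Tom+) in tumor #2 (log2 difference 3.72, SE 0.53, adjusted p = 0.0593). Of 8 complement receptors and regulators 4 were tested, and 0 passed in either comparison, with 3 at an unadjusted p-value below 0.05 between the tumors, where 36.7% of all genes tested were. The adjusted calls of this list between the tumors ranged from 0 to 3 over the settings tried. Cr1l, a complement regulator encoded next to Cr2, gave 44.7 TPM (Tom-) and 37.5 TPM (Tom+) in tumor #1, against 49.6 TPM (Tom-) and 39.6 TPM (Tom+) in tumor #2, far above Cr2. Cd55 was at 33.8 and 42.1 TPM and at 113 and 88.2 TPM (1.38, adjusted p = 0.0652), and the related Cd55b was at 1.94 (adjusted p = 0.0536), while Cd59a was lower in tumor #2 at -1.05 (adjusted p = 0.0918). In Tom+ cells Cr1l had a log2 fold change of -0.28 and Cd59a one of 0.23, both with adjusted p-values above 0.9.

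Genes for the ligands of CD22 and CD72 were spread around no difference between the mice. All 7 were tested, 0 passed in either comparison (3 at an unadjusted p-value below 0.05 between the tumors, against 36.7% of all genes tested), and their median log2 fold change between the tumors was 0.026, with a range from -0.21 to 0.11 and from 0 to 1 adjusted calls over the settings tried. St6gal1, which makes the sialic acid linkage that CD22 binds, gave 36.3 TPM (Tom-) and 29.7 TPM (Tom+) in tumor #1, against 55.2 TPM (Tom-) and 51.5 TPM (Tom+) in tumor #2 (log2 difference 0.68, SE 0.15, adjusted p = 0.0834). Siae, which removes acetyl groups from sialic acid, was at 2.79 and 2.99 TPM and at 4.92 and 7.54 TPM (0.87, SE 0.24, adjusted p = 0.111). Of the partners and splicing regulators of CD45, 3 of 4 were tested and 0 passed, with 0 also at an unadjusted p-value below 0.05. Ptprcap, which encodes a protein bound to CD45, was at 0.36 between the tumors (adjusted p = 0.200), Ptbp1 at -0.34 (adjusted p = 0.141) and Hnrnpl at 0.26 (adjusted p = 0.201). Hnrnpll, which promotes skipping of the variable exons of Ptprc, was between 0.182 and 0.652 TPM and could not be tested.

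The immunoglobulin chain genes, with membrane and secreted transcripts not separated, showed 0 calls between the tumors after adjustment. The unadjusted p-value was below 0.05 for 4 of 6, against 36.7% of all genes tested. Over the settings tried the adjusted calls ranged from 0 to 2. Ighd had the largest difference of the 6 constant regions tested, with 44.8 TPM (Tom-) and 40.1 TPM (Tom+) in tumor #1, against 124 TPM (Tom-) and 159 TPM (Tom+) in tumor #2 (log2 difference 1.71, SE 0.19, adjusted p = 0.0516), followed by Iglc2 (1.37, adjusted p = 0.106). Iglc3 was at 1.22 and Ighm at 1.13, while Iglc1 and Igkc were at 0.30 and 0.27. The 4 libraries were sorted as IgM+, and their RNA does not show the amount of receptor at the surface.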

How the data were processed

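RNA of sorted B220+ IgM+ Tom+ and Tom- splenocytes of 2 mice was sequenced by the authors as single reads, which were trimmed with Cutadapt and quantified with Salmon (version 1.9 per the submitters' processing notes) on the GRCm38 mouse transcriptome. The authors deposited TPM per gene for 34866 genes. How transcripts were summed to genes is not given in the sources used here, and 34582 identifiers matched GENCODE M21. The authors' edgeR test of paired samples needs counts and was not run. The 11339 genes that reached 1 TPM in 2 or more libraries were tested as log2(TPM + 1) with limma 3.58.1 (R 4.3.3), with Tom status and mouse as terms, a variance trend, and Benjamini-Hochberg adjustment over all genes at 0.05. The model was tested on simulated data with changes far larger than those of the members between Tom+ and Tom- cells. That check does not measure the power or error rate of the test in these data. Libraries of 1 mouse are pairs by origin, and their deviations from the group means correlated across genes (r = 0.626). A replicate is 1 library of a mouse.

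The members and lists were chosen with earlier results of these data known. Genes named from each list were the 2 with the largest change of the same sign in both mice, the 2 with the largest difference between mice without overlap, any that passed, the 6 immunoglobulin constant regions, and for likeness the 5 genes nearest to the members. Ms4a1, Fcer2a, Fcgr3, Ebf1, Hnrnpll, Ifitm1, Ifitm2, Cd200r1, Jchain, Hbb-bs, Cd14, Fcgr1, Ly6g, Cd3e, Trac and Tesk1 were named after their values were seen. Alternatives were no mouse block or no Tom term, no filter or one on mean TPM (5 or more), a pseudocount of 0.1 or 0.5, scaling to a trimmed mean, quantile normalization, rescaling over protein-coding genes outside immunoglobulin loci and the mitochondrial genome, no variance trend, and each mouse or each Tom group left out. Promoter windows were RefSeq sequences of GRCm38.p6. Tables and plots were made with Python 3.11.15, pandas 2.3.3, numpy 2.4.6 and matplotlib 3.10.9. Some items of the study are not reported here.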

Additional observations from a re-analysis of the deposited data

Results flagged for a closer look

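The following differences between Tom+ and Tom- cells went in opposite directions in the 2 mice, as did those of 48.8% of all genes tested. Each mouse gave 1 pair, so the difference between the mice was not tested. Values are the log2 fold change in tumor #2 minus that in tumor #1. Among the members the value was -0.31 for Cd81 and -0.72 for Cd72. Among the immunoglobulin constant regions it was 0.82 for Ighm, 0.51 for Ighd, 0.96 for Igkc, 0.41 for Iglc1, 1.22 for Iglc2 and 0.40 for Iglc3, all lower in Tom+ cells of tumor #1 and higher in those of tumor #2. Among the kinases and adaptors it was -0.73 for Fyn and 0.14 for Bank1. For the other inhibitory receptors and related genes it was -0.27 for Fcrl1, -0.082 for Siglecg and -0.21 for Btla. For the remaining genes it was 0.15 for Ptprcap, 0.57 for Tspan32, -0.67 for Cd55 and 1.8 for Fcmr, the largest in size of these values.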

How the results depend on the processing

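Between Tom+ and Tom- cells, 0 members passed in the main test and in each alternative, and the fit with no replicate block also called 0. The median log2 fold change of the tested members, -0.24, was -0.21 with trimmed-mean scaling, -0.18 with quantile normalization and -0.19 after rescaling over protein-coding genes, the last 2 with Cr2 included, and with 1 mouse left out ranged from -0.25 to -0.23. Cd81 changed sign with trimmed-mean scaling (0.015) and after rescaling (0.043). Between the tumors, 4 members passed in the main test and 0 with a pseudocount of 0.1, without a filter, with a mean TPM of at least 5, with quantile normalization and without a variance trend. The number was 5 with no Tom term, 4 with a pseudocount of 0.5, 3 with trimmed-mean scaling and 6 after rescaling, where 9 members were tested. Over all genes the calls ranged from 1 to 2283, against 491 in the main test. The median of the members, 1.34, was 1.28 without a filter, 1.10 with trimmed-mean scaling, 1.32 with quantile normalization and 1.37 after rescaling. It was 1.31 in Tom- libraries alone and 1.29 in Tom+ libraries alone, and no tested member changed sign under any of these. Medians without a filter, with quantile normalization and after rescaling included Cr2, which the main test left out. The median of all genes, 0.20, was -0.010 with trimmed-mean scaling, -0.097 with quantile normalization and 0.31 after rescaling. The adjusted p-value ranged from 0.0156 to 0.119 for Cd22, from 0.0165 to 0.119 for Cd79a, from 0.0147 to 0.119 for Cd79b and from 0.0160 to 0.119 for Fcgr2b, and the cause was not tested. Leaving out any 1 library leaves 1 complete pair and no residual degree of freedom, so such values carry no test. Depth is unknown for TPM, which limits the values of Cr2 the most.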

Other observations

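The 9 members summed to 1052 TPM in Tom- and 873 TPM in Tom+ cells of tumor #1 and to 2144 and 1707 TPM in tumor #2. Ptpn6 made up 44.3% and 42.5% of this sum in tumor #1 and 29.7% and 23.7% in tumor #2. Cd22 made up 12.0% and 10.3% in tumor #1 and 18.2% and 21.3% in tumor #2, and Fcgr2b 2.90% and 3.62% and then 3.79% and 5.58%. Among all genes of a library, Ptpn6 ranked between 224 and 366 by TPM, and Cd79b between 318 and 770.

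By the distance over the 4 libraries between centered log2(TPM + 1) profiles, the 5 genes nearest to the mean profile of the 9 members were Ddhd2 (distance 0.0666), Sipa1 (0.0781), Btbd8 (0.103), Ep300 (0.116) and Tapbp (0.120), from 5675 protein-coding candidates averaging 10 TPM or more, with a median distance of 1.08. Of the members themselves Cd79a (0.285) and Cd79b (0.358) were nearest to their mean profile, and Cd81 (0.861) was farthest. With 4 libraries of 2 mice, this likeness describes a profile that is high in tumor #2 and lower in Tom+ cells. Of the genes with exons over those of a member, Tesk1, opposite Cd72, was between 3.87 and 6.88 TPM. R74862, Gm29439, Gm38204 and Gm20531, opposite Cd81, Cd22, Fcgr2b and Ptpn6, were not found by name among the genes with TPM values, so no level can be given. Whether the counting used strand is not given in the sources used here.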
